A study of Mus musculus with 6 samples.

Results

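The insulin-like growth factor (IGF) system was described in hind leg muscle through 10 genes, taken by symbol from the 16759 genes of the deposited table. They are the ligand Igf1, the receptors Igf1r, Insr and Igf2r, the adaptors Irs1 and Irs2, and the binding proteins Igfbp3, Igfbp4, Igfbp5 and Igfbp7. All 10 were in the table and passed the filter on low values (mean FPKM of 1 or more), which left 10883 genes in the test. The muscle came from male C57BL/6J mice that were 8 weeks old at the start, with 3 control (Con) and 3 exercise (EX) mice and 1 RNA library per mouse. Con mice had no treadmill training. EX mice were trained on a treadmill over 6 weeks, with 5 daily sessions a week of 60 min each and a running distance of 22 km, and their tissue was taken 24 h after the final run. The time of tissue collection of the Con mice is not given in the sources used here, and neither is the muscle, or the part of it, that went into each library. Before dissection the vessels were flushed with saline, and the fat between the muscles was taken off.

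IGF1 and insulin act through related tyrosine kinase receptors, the products of Igf1r and Insr. The activated receptors phosphorylate the adaptors IRS1 and IRS2, which pass the signal to PI3K and AKT and so promote protein synthesis and glucose uptake in muscle. Most extracellular IGF is held by binding proteins, which are cut by proteases, and IGF2R binds IGF2 and carries it to the lysosome.

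Of the 10 genes, 3 were higher in EX muscle (Igf1, Irs1 and Irs2) and 2 were lower (Igf1r and Igfbp3). The test was edgeR's quasi-likelihood test with a Benjamini-Hochberg adjusted p under 0.05. The same threshold was passed by 17.9% of all genes tested, 9.11% being higher and 8.80% lower. The other 5 genes, Insr, Igf2r, Igfbp4, Igfbp5 and Igfbp7, did not pass it. The median size of the log2 fold change was 0.16 over the 10 genes and 0.10 over all genes tested. With sign, the median was 0.05 for the 10 genes and 0.00 for all genes tested. The CPM (counts relative to the library total, TMM-scaled) of the groups lay fully apart for 6 of the 10 genes, against 33.7% of all genes tested. Library totals ranged from 13845362 to 16240431 counts. The 10 genes had between 356 and 13840 counts in a library, all of them whole numbers. The 8 markers of muscle fibres summed to between 148720 and 157112 CPM in Con and between 159401 and 167461 in EX. The edgeR p-values rest on the spread between 3 mice per group, moderated with that of all genes tested, so a gene's own spread enters only in part.

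**Figure D1:**
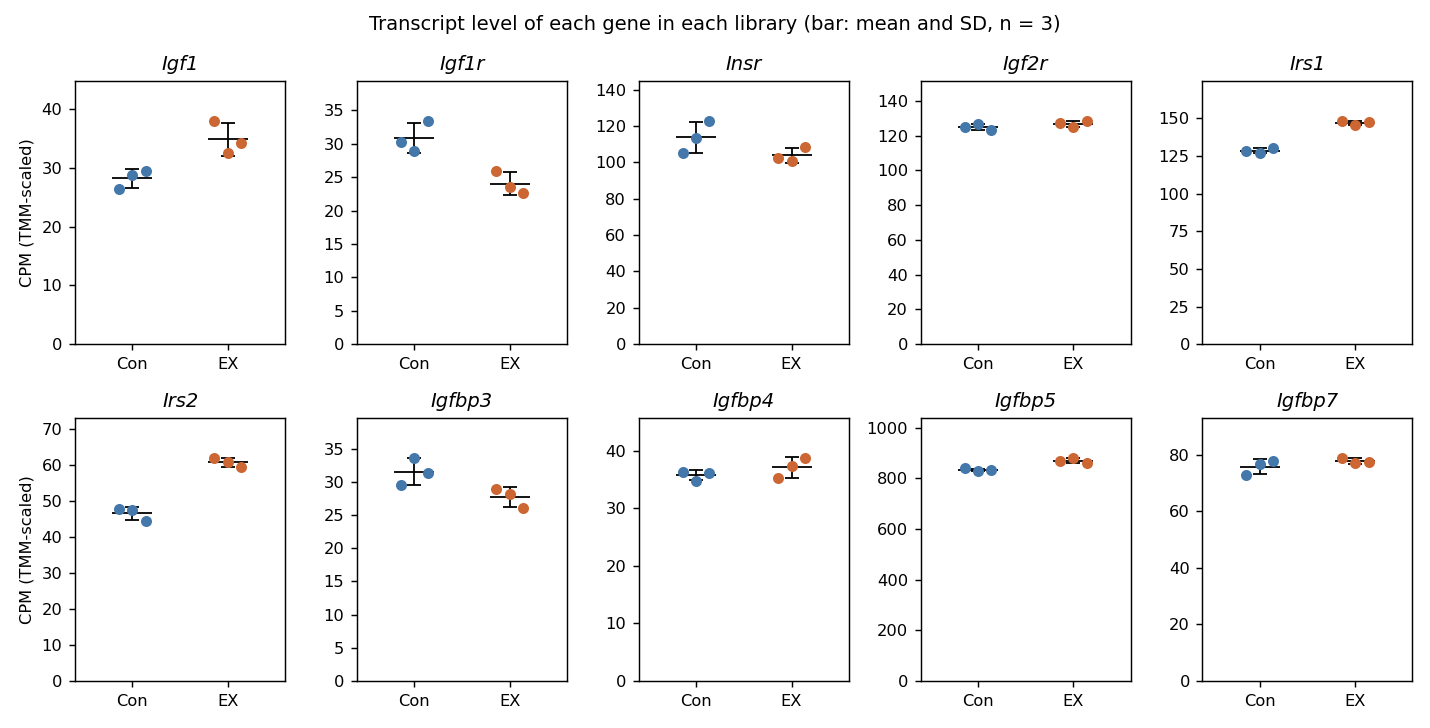
Transcript level (CPM, scaled by TMM, linear axis from 0) of the 10 IGF system genes in each Con (blue) and EX (orange) library, with the mean and SD of 3 mice in black. The points of the groups are apart for Igf1, Igf1r, Irs1, Irs2, Igfbp3 and Igfbp5 and overlap for the other 4 genes.

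Levels per length, in FPKM, differed widely between the genes. Igfbp5 was the highest in Con muscle, at 153.2 ± 0.852 (SD, n = 3) FPKM, above 95.4% of the genes tested. Igfbp7 followed with 96.8 ± 4.77 FPKM and Igfbp4 with 20.4 ± 0.490 FPKM. Next came Igfbp3 at 15.1 FPKM, Igf2r at 14.8 FPKM and Irs1 at 14.7 FPKM, and the values of neighbours in this order overlapped between libraries. Insr had 12.8 FPKM and Irs2 7.31 FPKM. The ligand and its receptor stood at the low end, with 4.28 ± 0.265 FPKM for Igf1 and 2.90 ± 0.244 FPKM for Igf1r, the last above 16.7% of the genes tested. In EX muscle Irs1 moved to the fourth place and Igfbp3 to the sixth, and the other 8 genes kept their places. The amount of FPKM per count, which shifts when the length assigned to a gene shifts, differed between groups by at most 0.0055 on the log2 scale for each of the 10 genes, and the groups overlapped.

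**Figure D2:**
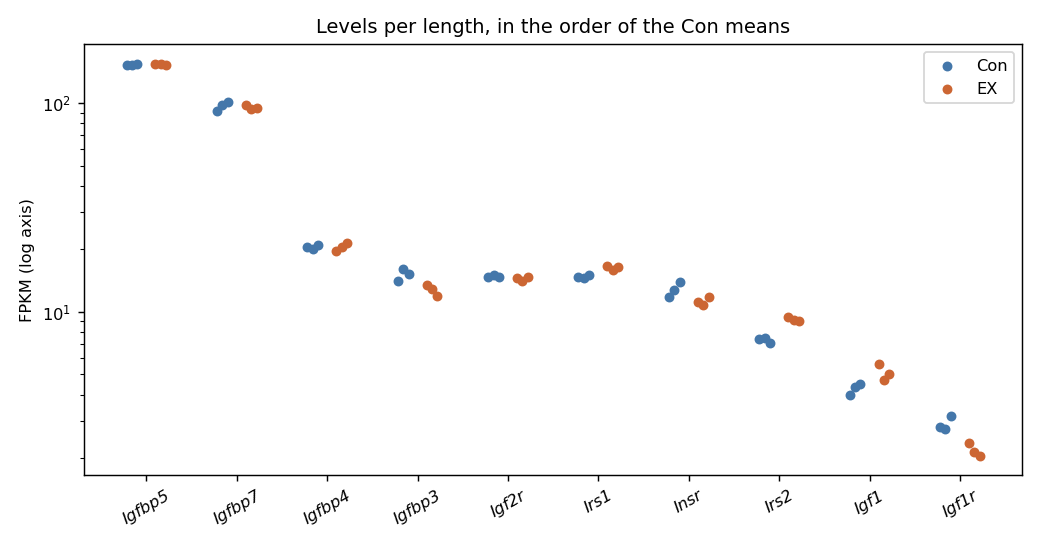
FPKM (log axis) of the 10 genes in each library, in the order of the Con means, with Con in blue and EX in orange. Igfbp5 and Igfbp7 lie far above the others, and Igf1 and Igf1r lie lowest in both groups.

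Igf1 (gene 16000) encodes the growth factor itself, which muscle makes locally besides the supply from the liver. It had 26.4, 28.7 and 29.4 CPM in the Con libraries and 37.9, 32.5 and 34.2 CPM in the EX libraries. Every EX mouse lay above every Con mouse, and EX replicate 1 was the highest. Igf1 rose by 0.30 on the log2 scale (standard error 0.07, adjusted p = 0.00136), or 1.24-fold. Leaving out any 1 library kept it past the threshold. With limma on FPKM or TPM, whose values are not TMM-scaled, the increase was 0.21 to 0.25 and the adjusted p was between 0.0867 and 0.112. Among the 10882 other genes tested, the 3 whose log2 CPM followed Igf1 most closely over the 6 libraries were Idh3a, Eif2s1 and Tra2b, each with a Pearson correlation of 0.99, given as a description of 6 points.

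Markers of macrophages and fibroblasts, which also express Igf1, differed between the groups in part. Of 10 macrophage markers, 7 were tested and 6 of these were higher in EX and 0 lower, or 85.7% beside the 17.9% of all genes tested. Their summed level was 45.0 to 50.1 CPM in Con and 80.0 to 87.5 CPM in EX, with none of the 10 at 0 in any library. Of 10 fibroblast markers, 4 were higher and 0 lower, or 40.0%. Their sum went from between 1025 and 1069 CPM to between 1374 and 1386 CPM, again with none at 0. The 4 that were higher are collagen genes, and the other 6 did not pass the threshold, with log2 fold changes from -0.14 to 0.22. Their part in the Igf1 result was not tested. In whole tissue, a change in the number of cells of a type and a change in RNA per cell cannot be told apart.

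Igf1r (gene 16001), the receptor for IGF1, fell the most of the 10 genes. Its levels were 30.2, 28.9 and 33.4 CPM in Con and 25.9, 23.6 and 22.6 CPM in EX. All 3 EX mice were below the lowest Con mouse. The change was -0.36 on the log2 scale (standard error 0.07, adjusted p = 0.00039), a decrease of 22.1%, and Igf1r passed the threshold in all 14 alternatives that tested it, with values from -0.44 to -0.30.

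Insr (gene 16337) encodes the insulin receptor, the closest relative of the IGF1 receptor. It measured 105, 113 and 123 CPM in Con and 102.5, 101 and 108 CPM in EX. The groups overlapped, since EX replicate 3 lay above Con replicate 1. The log2 fold change was -0.13 (standard error 0.05, adjusted p = 0.059). When Con replicate 1, the lowest Con mouse, was left out it was -0.19 (adjusted p = 0.00174), and when Con replicate 3, the highest, was left out it was -0.08 (adjusted p = 0.325).

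The ratio of Igf1r to Insr, taken within each library so that library scaling does not enter, was 0.238, 0.214 and 0.229 in Con and 0.210, 0.198 and 0.174 in EX, in FPKM. The groups did not overlap, and the ratio was lower in EX by 0.23 on the log2 scale (p = 0.1 in a two-sided exact permutation test, which cannot give a smaller p with 3 mice a group). The ratio of Igf1 to Igf1r, chosen after the values were seen, was 1.48 ± 0.103 (SD, n = 3) in Con and 2.36 ± 0.134 in EX. It differed by 0.67 on the log2 scale (exact permutation test, two-sided, p = 0.1). In FPKM the groups of Igf1 and of Igf1r each lay apart, in opposite directions. The groups of their ratio therefore had to lie apart, and the ratio only restates the results of the 2 genes.

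Igf2r (gene 16004), the clearance receptor for IGF2, had 125, 127 and 123 CPM in Con and 127, 125 and 128 CPM in EX. The values overlapped and the log2 fold change was 0.02 (standard error 0.04, adjusted p = 0.778). Its annotation overlaps that of the antisense transcript Airn, and the sources used here do not say whether counting used the strand. The annotations of Igf1, Igf1r, Irs2 and Igfbp7 also overlap other genes, so that reads of the overlapping parts cannot be assigned with certainty.

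Both adaptors rose, and in both the mice of a group lay close together. Irs2 (gene 384783) showed the largest increase among the 10 genes. Its levels of 47.8, 47.4 and 44.5 CPM in Con compare with 62.0, 60.9 and 59.4 CPM in EX. The lowest EX mouse was well above the highest Con mouse, and the log2 fold change was 0.39 (standard error 0.05, adjusted p = 1.73e-06), or 1.31-fold. Irs2 was past the threshold in all 15 alternatives, with values from 0.29 to 0.40.

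Irs1 (gene 16367) had 128, 127 and 130.01 CPM in Con and 148, 145 and 148 CPM in EX. Again the groups did not overlap. Irs1 rose by 0.20 on the log2 scale (standard error 0.04, adjusted p = 0.000686), or 1.15-fold. With limma on FPKM or TPM its increase was 0.10 to 0.14 (adjusted p from 0.08 to 0.155). The ratio of Irs2 to Irs1 in FPKM, chosen after the values were seen, was 0.496 ± 0.024 (SD, n = 3) in Con and 0.565 ± 0.0132 in EX, and the groups did not overlap (exact permutation test, two-sided, p = 0.1).

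The stretches of DNA before the starts of Irs1 and Irs2 are shown because these 2 genes moved together, and that of Igf1r because it moved the other way. RefSeq promoter sequences (build GRCm38.p6) were found for 9 of the 10 genes, all but Insr. The 250 bases before each start were searched on both strands for TGTTTTG, a core of insulin response elements that FoxO factors are known to bind, CACGTG, the E-box, GGGCGG, a GC box, and TTCNNNGAA, a STAT-type site. The motifs were picked with the gene results known, and CACGTG after the sequences were read. In the sequences below, from 5′ to 3′ on the strand of the gene, capitals mark TGTTTTG and CACGTG. The Irs1 stretch lies at chr1:82291460-82291559 on the minus strand and begins 120 bases before the start. The Irs2 stretch lies at chr8:11008930-11009049 on the minus strand and the Igf1r stretch at chr7:67952137-67952256 on the plus strand, and both cover the 120 bases before the start.
Irs1: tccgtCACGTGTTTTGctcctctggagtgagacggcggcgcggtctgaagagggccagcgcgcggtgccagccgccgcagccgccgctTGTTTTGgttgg
Irs2: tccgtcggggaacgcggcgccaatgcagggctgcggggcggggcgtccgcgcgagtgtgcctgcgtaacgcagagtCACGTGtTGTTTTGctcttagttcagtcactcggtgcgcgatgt
Igf1r: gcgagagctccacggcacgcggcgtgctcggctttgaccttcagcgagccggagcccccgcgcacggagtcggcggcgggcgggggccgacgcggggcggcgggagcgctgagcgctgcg

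Irs1 held TGTTTTG at 111 and at 32 bases before the start, the first overlapping CACGTG at 115 bases. Irs2 held CACGTG at 44 bases and TGTTTTG at 37 bases before the start. Of the 9 promoters, only those of Irs1 and Irs2 held TGTTTTG, which was found in 5.56% of all 32851 promoter stretches. CACGTG was also present in Igf2r and was found in 6.02% of all stretches, and both motifs together were found in 0.295%. GGGCGG lay before Igf1r, Igf2r, Igfbp7, Irs1 and Irs2, against 32.7% of all stretches, and TTCNNNGAA lay before none of the 9 genes, against 7.02%. A match only says that these letters stand in the window.

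Of the 4 binding proteins, 1 passed the threshold. Igfbp3 (gene 16009), the main carrier of IGF1 in blood, had 29.6, 33.7 and 31.4 CPM in Con and 29.0, 28.3 and 26.04 CPM in EX. The groups lay apart by a small gap between Con replicate 1 and EX replicate 1. Igfbp3 fell by 0.19 on the log2 scale (standard error 0.06, adjusted p = 0.045), close to the threshold. Its adjusted p was 0.217 without Con replicate 2, 0.0716 without Con replicate 3, 0.079 without EX replicate 2 and 0.222 without EX replicate 3, and 0.177 with DESeq2.

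Vessels are a known site of Igfbp3 expression, and vessel markers moved in the same direction. Of 10 endothelial markers tested, 5 were lower in EX and 1 was higher, and their sum was 951 to 977 CPM in Con and 836 to 858 CPM in EX. Of 8 markers of pericytes and smooth muscle, 7 were lower and 1 was higher, or 100%. They summed to 1359.8 to 1381 CPM in Con and 1130.4 to 1163 CPM in EX. No marker of either list was at 0 in any library. Their part in the Igfbp3 result was not tested.

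Igfbp5 (gene 16011), a binding protein made by muscle cells and bound to the matrix, had 839.6, 830.3 and 832 CPM in Con and 868, 881 and 862 CPM in EX. All 3 EX values were above the Con values, but the log2 fold change was only 0.06 (standard error 0.03, adjusted p = 0.203). For Igfbp4 (gene 16010), which restrains IGF action, the range was 34.7 to 36.4 CPM in Con and 35.3 to 38.8 CPM in EX, with a log2 fold change of 0.06 (adjusted p = 0.557). Igfbp7 (gene 29817), a vessel-associated protein with low affinity for IGFs, ranged from 72.7 to 77.8 CPM in Con and from 76.9 to 78.8 CPM in EX, with a log2 fold change of 0.04 (adjusted p = 0.647). Both overlapped between groups.

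The summed FPKM of Igfbp3, Igfbp4 and Igfbp5 was 47.1, 43.2 and 42.4 times that of Igf1 in the Con libraries and 33.5, 39.9 and 36.9 times in the EX libraries. This ratio was lower in each EX mouse than in any Con mouse, by 0.27 on the log2 scale (exact permutation test, two-sided, p = 0.1). Igfbp5 makes up most of the sum, and its mean was 153.2 FPKM in Con and 153.7 FPKM in EX. The mean of Igfbp4 was 20.4 FPKM in both groups, and that of Igfbp3 went from 15.1 to 12.8 FPKM. That of Igf1 went from 4.28 to 5.11 FPKM, so the ratio mostly restates the Igf1 change.

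**Figure D3:**
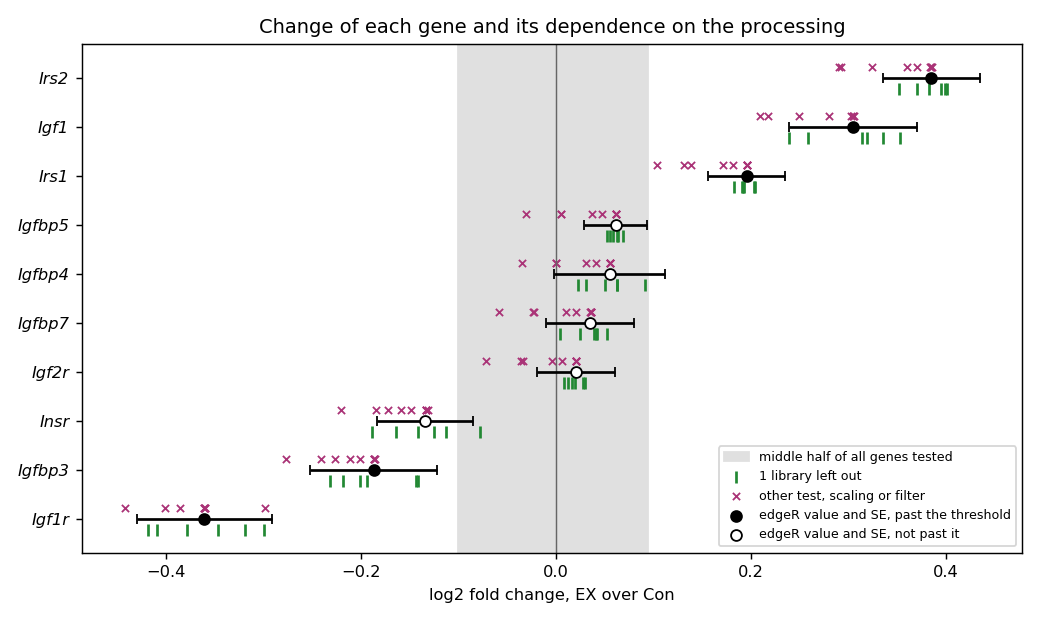
Log2 fold change (EX over Con) of the 10 genes from edgeR with its standard error, filled where the adjusted p-value was under 0.05, with the values when 1 library was left out (green) and under other tests, scalings, filters or the replicate block (purple). The grey band runs from the lower to the upper quartile of all genes tested, -0.10 to 0.10. Irs2, Irs1, Igf1, Igf1r and Igfbp3 lie outside it at every setting.

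Other genes of the pathway were read from 6 lists with 103 genes, of which 89 were tested. Of these, 10 were higher and 17 lower, or 30.3% beside the 17.9% of all genes tested, with a median log2 fold change of -0.06. Among the other ligands, binding proteins and proteases, 1 of 6 tested genes (16.7%) was higher and 0 were lower, with a median of 0.16. This was Htra1, a secreted serine protease that can cut IGFBP5, with 54.7, 49.9 and 50.3 CPM in Con and 79.5, 80.5 and 76.8 CPM in EX. Its groups were far apart, and its log2 fold change was 0.61 (adjusted p = 3.19e-10). Igf2, the second ligand, changed by 0.14 (adjusted p = 0.146) and Igfbp6, which prefers IGF2, by 0.18 (adjusted p = 0.0684). Igfbp6 passed the threshold without Con replicate 1 (adjusted p = 0.0429) and without EX replicate 1 (adjusted p = 0.0438). Igfbp2 did not reach the filter and had between 5 and 10 counts per library.

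Pappa2 encodes a metalloproteinase known to cut IGFBP3 and IGFBP5, and it too did not reach the filter, with 0.0900 FPKM on average in Con and 0.350 FPKM in EX. It had 14, 11 and 10 counts in the Con libraries and 52, 55 and 41 counts in the EX libraries. The EX counts were all more than those of any Con mouse, and in the fit without a filter, where 12.0% of 16759 genes passed the threshold, the log2 fold change was 2.02 (standard error 0.24, adjusted p = 1.68e-08), or 4.04-fold. Leaving out 1 library gave values from 1.88 to 2.22, all past the threshold, and limma on log2(FPKM + 0.1) gave 1.25 (adjusted p = 0.0104). Pappa2 was singled out after its values were seen, and it was the only one of the 14 pathway genes under the filter that passed the threshold in this fit. The related protease gene Pappa, also named after its values were seen, had 3 to 7 counts in each library.

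Of 17 adaptors and inhibitors of the receptors, 3 were higher and 4 lower, with a median of -0.05. This was a share of 41.2% beside the 17.9% of all genes tested. The increases were Grb14, an inhibitor of the insulin receptor (0.41, adjusted p = 0.000504), Ptpn2, a phosphatase (0.25, adjusted p = 0.0151), and Trim72, a muscle ubiquitin ligase (0.19, adjusted p = 0.00156), all as log2 fold changes. The change of Ptpn2 was -0.04 with limma on log2(FPKM + 0.1). Its mean went from 21.2 CPM in Con to 25.2 CPM in EX but from 9.29 to 9.15 FPKM, and the cause was not tested. Ptpn2 lost its call when Con replicate 2 (adjusted p = 0.0933) or EX replicate 1 (adjusted p = 0.118) was left out and with DESeq2 (adjusted p = 0.0782). The decreases included Socs3, an inhibitor of cytokine signalling (-0.37, adjusted p = 0.028), Sos1, which activates Ras (-0.25, adjusted p = 0.00302), and Gab1, a docking protein (-0.20, adjusted p = 0.0123). Trim72 did not pass the threshold in the 3 limma fits (adjusted p from 0.0521 to 0.0826), and Gab1 did not with DESeq2 (adjusted p = 0.0677). Socs3 lost its call with DESeq2 (adjusted p = 0.14) and without Con replicate 2 or any 1 of the EX replicates (adjusted p from 0.0665 to 0.135). The remaining one, Fbxo40, named after its value was seen, encodes another muscle ubiquitin ligase. It fell, where Trim72 rose, from 707 ± 6.47 (SD, n = 3) CPM to 617 ± 4.25 CPM (log2 fold change -0.20, adjusted p = 7.93e-05). Grb10, an imprinted inhibitor of both receptors, changed by 0.01 (adjusted p = 0.952), and other scalings turned its sign.

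Further down the pathway, 2 of 26 genes of PI3K, AKT and mTOR were higher and 2 lower, a share of 15.4% beside the 17.9% of all genes tested, with a median of -0.06. The log2 fold change of Deptor, an inhibitor of mTOR, was 0.37 (adjusted p = 7.6e-08) and that of Rheb, an activator of mTOR, 0.15 (adjusted p = 0.035). Gsk3b, a kinase that AKT inhibits, fell by 0.18 (adjusted p = 0.0059) and Pdpk1, a kinase that activates AKT, by 0.15 (adjusted p = 0.0446). The calls of Rheb and Pdpk1 were each lost in 11 of 15 alternatives, that of Pdpk1 when any 1 library was left out (adjusted p up to 0.147) and that of Rheb without Con replicate 1 or 2 or EX replicate 1 or 3 (adjusted p up to 0.167). Gsk3b lost its call without EX replicate 2 (adjusted p = 0.0615). Of 19 FoxO factors and targets, which insulin and IGF1 signalling is known to hold down, 2 were higher and 6 lower. This was 42.1% beside the 17.9% of all genes tested, and the median was -0.10. Cited2, a transcriptional regulator, fell by 0.81 (adjusted p = 2.81e-14), the ubiquitin ligase gene of muscle atrophy Trim63 by 0.30 (adjusted p = 1.6e-06), and Pdk4, which restrains pyruvate oxidation, by 0.19 (adjusted p = 0.00021). Foxo6 rose by 0.43 (adjusted p = 0.0203) and Gadd45a, a stress-response gene, by 0.27 (adjusted p = 0.00277). Foxo6 lost its call when Con replicate 2 or either of EX replicates 1 and 3 was left out, with DESeq2 and in the 3 limma fits (adjusted p from 0.0565 to 0.104).

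For glucose uptake, 2 of 15 genes were higher and 2 lower, or 26.7% beside the 17.9% of all genes tested, with a median of -0.02. Rab10, a GTPase of glucose transporter traffic, had a log2 fold change of 0.20 (adjusted p = 0.000128) and the hexokinase gene Hk2 one of 0.14 (adjusted p = 0.0042). Tbc1d1, which restrains glucose transporter traffic, fell by 0.23 (adjusted p = 0.000694). In the 3 limma fits the change of Hk2 was 0.06 to 0.09 and did not pass the threshold (adjusted p from 0.109 to 0.27). Tbc1d1 did not pass it with limma on FPKM (adjusted p of 0.0721 and 0.0732), nor Rab10 with limma on TPM (0.10, adjusted p = 0.074). Growth hormone is the main inducer of Igf1 in liver. Of 6 genes of its signalling, 0 were higher and 3 lower, or 50.0% beside the 17.9% of all genes tested. The 3 were Cish (-1.06, adjusted p = 5.4e-17), Socs2 (-0.66, adjusted p = 1.88e-09) and Stat5b (-0.22, adjusted p = 5.25e-05). The growth hormone receptor gene Ghr changed by 0.03 (adjusted p = 0.659).

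**Figure D4:**
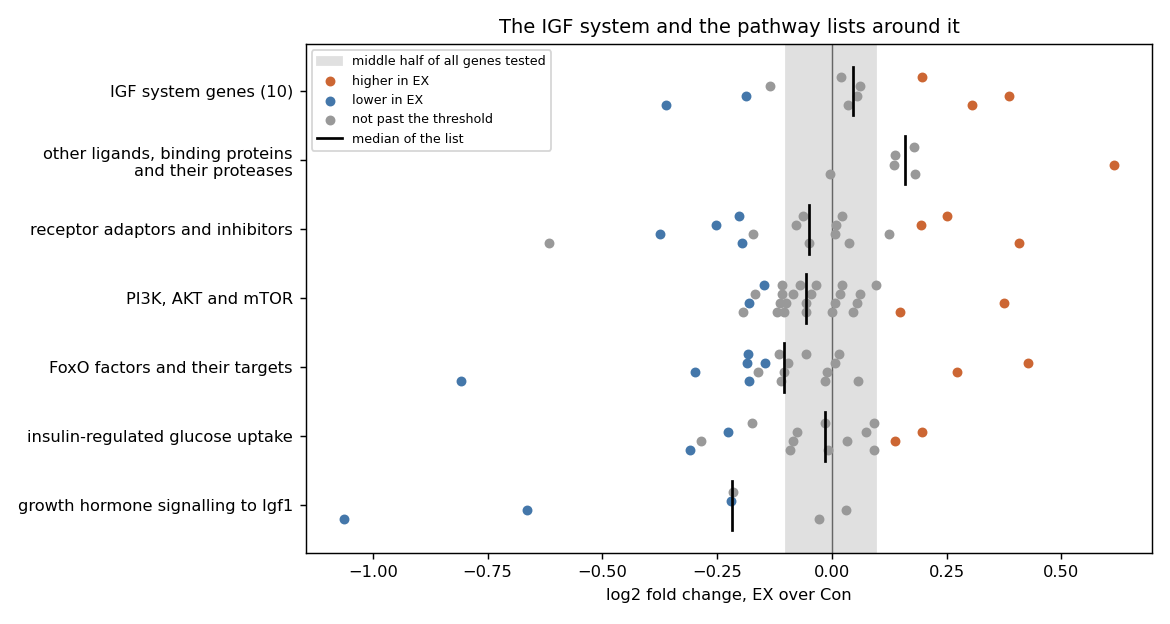
Log2 fold change (EX over Con) of each tested gene of the IGF system and of 6 pathway lists, coloured where the adjusted p-value was under 0.05, with the median of each list as a black line and the range between the quartiles of all genes tested in grey. The lists of FoxO genes and of growth hormone signalling have medians of -0.10 and -0.22.

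Of the remaining marker lists, all 8 slow fibre genes were higher in EX, with a sum of 142 to 149 CPM in Con and 414 to 444 CPM in EX. Their log2 fold changes ran from 0.40 to 6.65 with a median of 3.87, and the genes with the smaller changes make up most of the Con sum. Of 7 tested tendon markers 3 were higher and 0 lower, of 7 adipocyte markers 5 higher and 1 lower, and of 7 satellite cell markers 2 higher and 0 lower. These shares were 42.9%, 85.7% and 28.6%, beside the 17.9% of all genes tested. Of 8 liver markers 0 were higher and 7 lower (87.5%), with a sum of 107 to 111 CPM in Con and 60.7 to 66.9 CPM in EX. Of 8 muscle fibre markers 2 were higher and 1 lower (37.5%). The part of these cell types in the changes of the IGF system was not tested.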

How the data were processed

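RNA libraries of 3 Con and 3 EX mice were analysed, with groups taken from the treatment labels. The authors filtered the reads and matched them with HISAT to GRCm39 according to the paper, while the submitters' processing notes name GRCm38.p6, cutadapt, featureCounts and MultiQC. The deposited table holds estimated counts, FPKM and TPM per gene and library, the last 2 normalized by the authors. Its 6 columns of group means were not used. The members and lists were chosen with earlier results of these data known.

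Counts were rounded and compared with edgeR 4.0.16 (TMM, glmQLFit, glmQLFTest) in R 4.3.3 over the 10883 genes whose mean FPKM was 1 or more, with Benjamini-Hochberg adjustment and a threshold of 0.05. CPM were computed from the counts with TMM-scaled library totals. Ratios of FPKM were compared by exact permutation tests. Alternatives were DESeq2 1.42.0, limma 3.58.1 on log2(FPKM + 0.1), log2(FPKM + 1) and log2(TPM + 0.1), 2 other scalings, 2 other filters, a replicate block and each library left out. Fold changes from limma are on the log2(value + pseudocount) scale, where the pseudocount draws those of low genes towards 0. Named genes are the 10 members, the 3 largest increases and decreases past the threshold in each pathway list, and Igf2, Igfbp2, Igfbp6, Grb10 and Ghr. A gene that this rule names is not reported here, and Fbxo40, Pappa and Pappa2 were named outside it after their values were seen. The fits were tested on simulated data. The ratios of Igf1 to Igf1r and of Irs2 to Irs1 and the fit of unfiltered genes were added after the data were seen.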

Additional observations from a re-analysis of the deposited data

How the results depend on the processing

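The number of the 10 genes past the threshold was 5, and it was 3 with limma on log2(FPKM + 0.1), on log2(FPKM + 1) and on log2(TPM + 0.1). In these 3 fits the log2 fold change of Igf1 was 0.25, 0.21 and 0.22, that of Irs1 was 0.14, 0.13 and 0.10, and neither passed the threshold. That of Insr passed it at -0.16 when scaled by totals without the 20 most abundant genes and at -0.15 with a filter of 5 FPKM, and ranged from -0.1885 to -0.0772 when 1 library was left out. That of Igfbp3 did not pass it with DESeq2 (-0.19), without a filter (-0.19) or with the replicate block (-0.19, adjusted p = 0.0607), and ranged from -0.23 to -0.14 when 1 library was left out. The cause was not tested. The replicate block changed no other call of the 10 genes, and it also removed those of Rheb and Pdpk1. Same-numbered libraries did not deviate together (correlations from -0.084 to -0.052 over the genes tested, and from 0.005 to 0.067 for other numbers), so the numbers do not pair mice. The filter of 5 FPKM removed Igf1 and Igf1r.

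Of the genes named, 7 had the other sign under some setting. With totals without the 20 most abundant genes, the change was -0.0039 for Igf2r and -0.018 for Grb10. With limma on log2(FPKM + 0.1), log2(FPKM + 1) and log2(TPM + 0.1), it was -0.0352, -0.0331 and -0.0711 for Igf2r, -0.0229, -0.0227 and -0.0583 for Igfbp7, -0.0449, -0.0408 and -0.0801 for Grb10, -0.0394, -0.0346 and -0.0751 for Ptpn2, and -0.0495, -0.0486 and -0.0848 for Ghr. With TPM it was -0.0351 for Igfbp4 and -0.0303 for Igfbp5. Grb10 was at -0.0077 with the filter of 5 FPKM, and from -0.0111 to 0.0199 when 1 library was left out, and Ghr from -0.003 to 0.0485. The median of all genes tested was -0.06 with limma on log2(FPKM + 0.1) and -0.09 on log2(TPM + 0.1). Among all genes tested, 991 were higher and 958 lower, against 643 and 585 with DESeq2, 768 and 1269 with totals without the 20 most abundant genes, 411 and 1037 with limma on log2(FPKM + 0.1), 411 and 1032 on log2(FPKM + 1) and 340 and 1684 on log2(TPM + 0.1). The number of pathway genes past the threshold was 27 and ranged from 19 with DESeq2 to 34 with totals without the 20 most abundant genes. Within a library a ratio is the same in TPM as in FPKM, apart from rounding, and the groups of all 4 ratios lay apart. TPM in place of FPKM, or leaving out 1 library, therefore could not turn their sign. With counts the 3 ratios other than that of the binding proteins to Igf1, which was not recomputed, kept theirs. Counts could change them little, because FPKM per count differed by at most 0.0055 between the groups.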
